A study of Mus musculus with 10 samples.

Results

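Among 10 libraries of whole mouse skin, 4 carried abundant transcripts of the hair keratins and 6 did not. The libraries with high hair keratins were WT 4, STAT3cKO 1, STAT3cKO 3 and STAT3cKO 5, and are called hair-growing here. WT 1, WT 2, WT 3, WT 5, STAT3cKO 2 and STAT3cKO 4 are called hair-resting. The 2 sets were chosen by the deposited values of 8 hair keratins in these same libraries, with a mean above 8 on the log2 scale for the hair-growing set. They are not groups that the study named, and no hair phase, histology, sex, litter or harvest date was given in the sources used here. The study compared 5 libraries with loss of the transcription factor STAT3 in keratinocytes (STAT3cKO) with 5 wild-type libraries (WT), all from skin taken at 5 months of age on a C57BL/6 background. The promoter that drives the deletion was not given in the labels, and whole skin also holds cells in which Stat3 was not targeted. RNA was read from transcript 3′ ends, and a deposited value is the log2 of scaled reads plus 1, so a step of 1 is a doubling. Hair-growing libraries comprised 1 WT and 3 STAT3cKO, and hair-resting libraries comprised 4 WT and 2 STAT3cKO. Every comparison of the sets therefore carried genotype as a covariate. Whether the libraries stem from 10 different mice is not stated, so the tests measure the spread between libraries, which may be partly technical.

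A hair follicle cycles through growth (anagen), regression (catagen) and rest (telogen). In growth, proliferating matrix cells at the base of the follicle give rise to the hair shaft and to the inner root sheath that moulds it, under Wnt, BMP, hedgehog and FGF signals exchanged with the dermal papilla. Shaft cells fill with hair keratins, which keratin-associated proteins (KAPs) cross-link, and pigment cells in the bulb hand melanin to the shaft. A resting follicle has neither a matrix nor an inner root sheath. In mice the fat layer of the dermis is known to thicken as hair grows.

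The values that chose the sets are given as a description. Krt25, Krt27 and Krt71 are inner root sheath keratins, and Krt31, Krt33a, Krt33b, Krt35 and Krt86 are keratins of the hair shaft. Their mean was 14.24 in WT 4, 9.71 in STAT3cKO 1, 13.70 in STAT3cKO 3 and 10.17 in STAT3cKO 5. Against these stood 0.00 in WT 1, 0.00 in WT 2, 3.73 in WT 3, 2.73 in WT 5, 0.06 in STAT3cKO 2 and 0.10 in STAT3cKO 4. The library nearest inside the threshold was thus STAT3cKO 1 and the nearest outside was WT 3. WT 3 and WT 5 were not empty of these transcripts. Krt71 had a value of 8.82 in WT 3 and 4.89 in WT 5, and Krt25 had 7.43 and 7.03. In WT 1 and WT 2 each of the 8 genes was at 0.00. The word resting therefore covers libraries with no reads of these 8 genes and libraries with some.

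**Figure D1:**
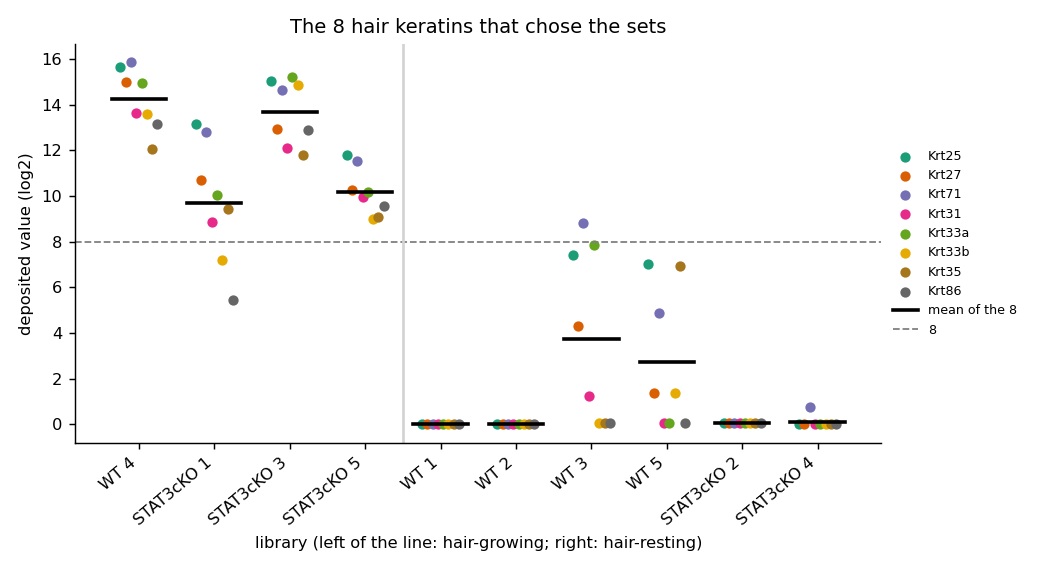
Deposited values (vertical axis, log2) of the 8 hair keratins in each library (horizontal axis), with points for genes, black bars for their mean and the dashed line at 8. The 4 hair-growing means lie between 9.71 and 14.24 and the 6 hair-resting means between 0.00 and 3.73.

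The libraries held an estimated 7190000 to 18300000 reads, with a mean of 11400000 in either set (exact 2-sided permutation p = 0.986 over the 210 ways to choose 4 of 10 libraries). Of 12312 genes with a value of at least 5 in at least 4 libraries, 165 to 1458 had no read in a hair-growing library and 316 to 3175 in a hair-resting one (exact permutation p = 0.252). STAT3cKO 2, with 3175 such genes, and WT 3, with 1702, stood highest, and both lie in the hair-resting set. STAT3cKO 2 also had a value of 0.06 for Xist, listed here as a sex gene, against 8.65 to 11.01 in the other 9 libraries. Sex was not given, and its part in the set and genotype differences was not tested. The median set difference over all tested genes was 0.36, and 62.9% of genes were positive. Without these 2 libraries the median was 0.06, and quantile normalization gave 0.05. Small positive differences are therefore read against that shift.

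Promoters of 6 genes that followed the split are shown, because the data concern genes that move together. They are the 120 bases before the RefSeq transcription start on GRCm38.p6, written 5′ to 3′ on the gene's strand, with each TATAAA on that strand in capitals. Krt31 is one of the rule's shaft keratins, at chr11:100050552-100050671 on the minus strand. Krtap8-1 (chr16:89487953-89488072, minus strand) and Krtap11-1 (chr16:89571184-89571303, minus strand) are the KAPs with the greatest set differences. Prr9 (chr3:92123948-92124067, minus strand) and Sprr1a (chr3:92485882-92486001, minus strand) passed in each of the 10 fits that left out a library. Dct (chr14:118052247-118052366, minus strand), a pigment enzyme, is shown because its stretch holds no TATAAA.
Krt31: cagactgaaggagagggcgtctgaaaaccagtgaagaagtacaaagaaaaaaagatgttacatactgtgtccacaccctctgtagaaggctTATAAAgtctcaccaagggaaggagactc
Krtap8-1: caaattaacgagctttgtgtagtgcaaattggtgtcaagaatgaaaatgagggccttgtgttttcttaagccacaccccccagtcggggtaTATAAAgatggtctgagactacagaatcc
Krtap11-1: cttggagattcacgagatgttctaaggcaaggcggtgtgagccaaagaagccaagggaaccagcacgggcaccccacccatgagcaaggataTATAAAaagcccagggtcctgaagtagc
Prr9: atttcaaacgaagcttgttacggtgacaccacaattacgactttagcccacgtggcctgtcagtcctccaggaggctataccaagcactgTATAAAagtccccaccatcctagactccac
Sprr1a: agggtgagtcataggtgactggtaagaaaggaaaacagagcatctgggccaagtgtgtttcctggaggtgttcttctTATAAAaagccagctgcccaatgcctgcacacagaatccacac
Dct: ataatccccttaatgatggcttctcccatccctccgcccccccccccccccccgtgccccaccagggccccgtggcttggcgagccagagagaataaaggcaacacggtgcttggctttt
The TATAAA begins 29 bases before the start in Krt31 and Krtap8-1, 28 in Krtap11-1, 30 in Prr9 and 43 in Sprr1a. The hexamers TATAAA (the TATA box core) and CTTTGA (a core bound by LEF1 and TCF factors), were searched in the 250 bases before each start, on either strand. TATAAA was found in 84.4% of the 32 promoters matched to called genes of the hair structure lists, in 44.7% of 38 promoters of the other called higher genes, in 18.8% of 16 promoters of called lower genes and in 12.4% of all 32851 promoters. On the gene's own strand, with its first base 25 to 40 bases before the start, it stood in 65.6% of the 32, in 26.3% of the 38, in 18.8% of the 16 and in 1.91% of all. CTTTGA was found in 34.4%, 7.89%, 12.5% and 13.8% of these groups in the same order. A match of letters is not a bound site. KAP genes are tandem copies, so their promoters are not independent, and only 32 of 38 genes of the lists had an entry. The other called higher genes included 12 that lie in keratin or KAP gene clusters, so they are not a group without hair genes. Of these 39 genes 30 had an entry, and of the lower genes 12 of 21.

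Across all genes, 77 of 12304 (0.626%) were called higher in hair-growing skin and 21 (0.171%) were called lower, with the 8 rule markers left out. Called means a limma adjusted p under 0.05 with genotype as a covariate. Because hair keratins of the same libraries set the split, a call says that a gene follows that split and is no separate evidence of a hair phase. Many called higher genes met the filter through the 4 hair-growing libraries alone, so the count of 77 is a description. They include Krtap11-1 and Padi3 and, outside the hair structure lists, Wif1. With a value of at least 5 required in at least 5 libraries, 31 were called higher and 14 lower. Of the 77 higher genes, 38 belonged to the lists of shaft keratins, KAPs and inner root sheath genes, 12 others lay in keratin or KAP gene clusters and 27 lay elsewhere. In genomic terms (mm10, GENCODE genes), 4 regions were drawn from outer hair genes, mostly called ones, which in part fixes their counts. They held 46 of the 74 called higher genes with a position. The type I keratin and KAP region at chr11:99315516-100261029 held 24 of its 37 tested genes. The KAP regions chr16:88610705-89571183 and chr10:77711457-77853788, held 14 of 16 and 5 of 5 tested genes. The type II keratin region at chr15:101459061-101802346 held 3 of 7. None of the 21 lower genes lay in the 4 regions.

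WT 4 is the only WT library in the hair-growing set, and the count of calls rests on it. Without WT 4, 4 of the 98 genes passed, among them the higher genes Sprr1a, Prr9 and Tchh, although all 98 kept the direction of their difference. Of the 98 genes, 49 passed in all 9 fits that kept WT 4 and left out another library. Leaving out STAT3cKO 3 gave 47 higher and 11 lower genes, and leaving out STAT3cKO 4 or STAT3cKO 5 gave 41 or 37 lower. No gene passed for the interaction of set and genotype in limma. Of 12312 tested genes, 283 had an unadjusted limma p under 0.05, a share below the 0.05 expected without any interaction. Whether the set difference is the same in both genotypes thus rests on 1 WT library and could not be settled. When STAT3cKO 4 was left out, genes passed for the interaction, but STAT3cKO 2 then stood alone for hair-resting STAT3cKO. STAT3cKO 2 had 3175 tested genes without a read, and WT 4 stood alone for hair-growing WT. That fit thus rests on single libraries and shows nothing about an interaction.

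**Figure D2:**
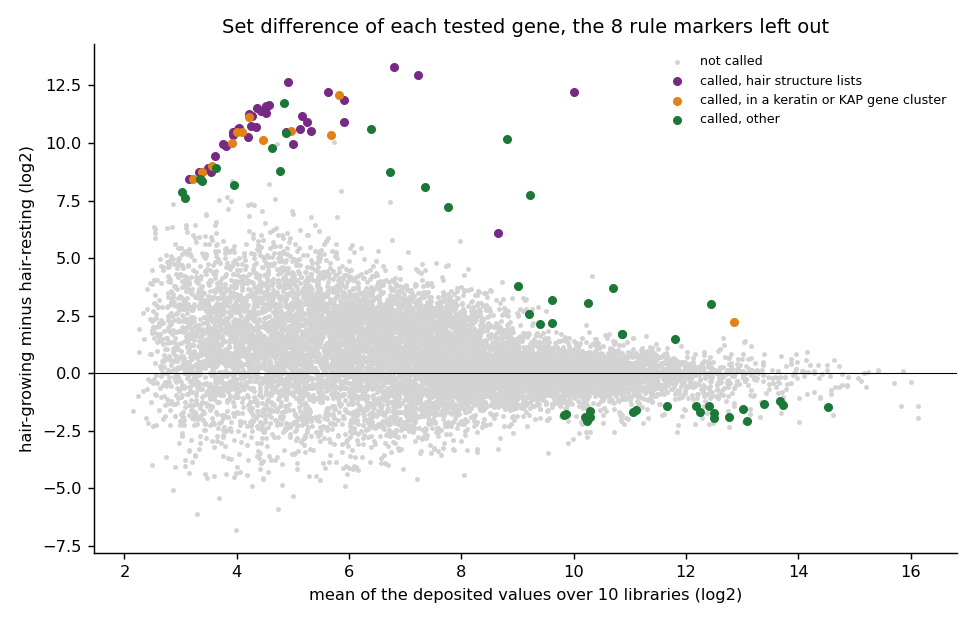
Mean deposited value of each tested gene (horizontal axis, log2) against its hair-growing minus hair-resting difference with genotype as covariate (vertical axis, log2), without the 8 rule markers. Coloured points are the 77 called higher and 21 called lower genes, and those below 0 on the vertical axis lie at mean values near 10 and above.

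The hair shaft keratins outside the rule were high in the hair-growing libraries. Krt81, a cortex keratin, had deposited values of 16.88 in WT 4, 10.68 in STAT3cKO 1, 16.23 in STAT3cKO 3 and 12.83 in STAT3cKO 5. Hair-resting values of Krt81 were 0.00 in WT 1, 0.00 in WT 2, 8.78 in WT 3, 1.36 in WT 5, 1.29 in STAT3cKO 2 and 0.00 in STAT3cKO 4. The sets did not overlap, and WT 3 came nearest. Krt85, an early shaft keratin, was 10.01 to 14.77 in hair-growing libraries and 0.00 to 7.13 in hair-resting ones. Of the 6 tested members of the list, 3 were called higher (Krt81, Krt85 and Krt34) and 0 lower, with a median difference of 8.66. Krt32, a cuticle keratin that was not called, had reads in 4 hair-resting libraries, with 8.50 in STAT3cKO 2 and 6.80 in WT 1. In WT 1 the mean of the 6 tested members was 3.46, although the 3 called members were at 0.00. Uncalled members besides Krt32 thus also had reads in that hair-resting library. Untested Krt82 and Krt39 were at or near 0 in the hair-resting set, at 0.08 or less, and reached 10.16 and 9.55 in STAT3cKO 3.

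KAPs form the matrix around the keratin filaments of the shaft. Of 53 named KAP genes, 33 were tested and 29 of these were called higher and 0 lower. The sets did not overlap in 28 of these 29 and in Krtap3-3, which was not called, and Krtap6-5 was the called KAP with overlap. Of all genes, 2.57% did not overlap with the hair-growing set above and 1.09% with it below. The called KAPs met the filter only with the hair-growing libraries, and 15 of the 33 tested had no hair-resting read. Krtap3-2, not called, met it in hair-resting libraries alone. The KAP counts therefore describe the list and lend nothing further. Krtap11-1, whose promoter is printed above, had values of 14.51 in WT 4, 9.92 in STAT3cKO 1, 14.14 in STAT3cKO 3 and 10.30 in STAT3cKO 5, and of 0.08 or less in each hair-resting library, which is no read. Its level was at least 1160-fold higher in the hair-growing set, against a floor of 3 reads per library. For the 33 the median difference was 10.53, or 9.20 with genes that had no hair-resting read set at that floor. Krtap8-1 had values of 10.60 to 16.78 in hair-growing libraries, and of 8.56 in WT 3, 4.47 in WT 2 and 3.10 in WT 5. Sets overlapped in Krtap3-2, Krtap4-6 and Krtap15, none of which was called. Krtap3-2 had values of 10.34 in STAT3cKO 2, 10.26 in STAT3cKO 4, 9.65 in WT 3 and 9.34 in WT 1, and of 9.23 to 13.08 in the hair-growing set. KAP genes are near-identical copies, and how reads were shared among them is not known, so values of single KAPs are uncertain. Of the 20 untested KAPs, 4 had no library above 5.

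The inner root sheath surrounds the forming shaft. Of 12 listed genes of this sheath and its companion layer, 10 were tested and 6 were called higher, with a median difference of 7.75, or 6.52 with the floor. Of the 10, 3 had no hair-resting read and passed the filter through the hair-growing set, so this count too is a description. Trichohyalin (Tchh), the main protein of this sheath, had 16.98 in WT 4, 14.49 in STAT3cKO 1, 17.64 in STAT3cKO 3 and 14.14 in STAT3cKO 5. In the hair-resting set Tchh had 8.26, 7.54, 11.14 and 8.99 in WT 1, 2, 3 and 5, but 0.06 in STAT3cKO 2 and 0.77 in STAT3cKO 4. The low values thus came from the 2 hair-resting STAT3cKO libraries, and the genotype difference of Tchh did not pass. Krt73 was 10.05 to 14.25 against 0.00 to 3.40, and Krt75, of the companion layer next to the sheath, was 9.63 to 13.15 against 1.29 to 9.46. Padi3, which converts arginine to citrulline in trichohyalin, had no read in any hair-resting library and 6.25 to 11.31 in the hair-growing set. Gata3, a transcription factor of the sheath that the epidermis also expresses, had 10.46 to 12.62 and 10.28 to 11.86, with the sets overlapping.

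The hair-growing libraries were not equal in these transcripts. The 83 genes of the 4 hair structure lists, rule markers included, held 10.9% of the unlogged values in WT 4 and 8.13% in STAT3cKO 3, but 0.847% in STAT3cKO 1 and 0.788% in STAT3cKO 5. In the hair-resting set they held 0.0272% in WT 2 to 0.114% in WT 3. KAP list means separated the 4 libraries further, with 13.23 in WT 4, 12.14 in STAT3cKO 3, 9.01 in STAT3cKO 5 and 7.29 in STAT3cKO 1. For the inner root sheath list STAT3cKO 1 (10.17) stood above STAT3cKO 5 (9.31), in the reverse order. In bulk skin a smaller number of hair-forming cells and less RNA per cell cannot be told apart. The place on the body from which each piece of skin was taken was not given in the sources used here.

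**Figure D3:**
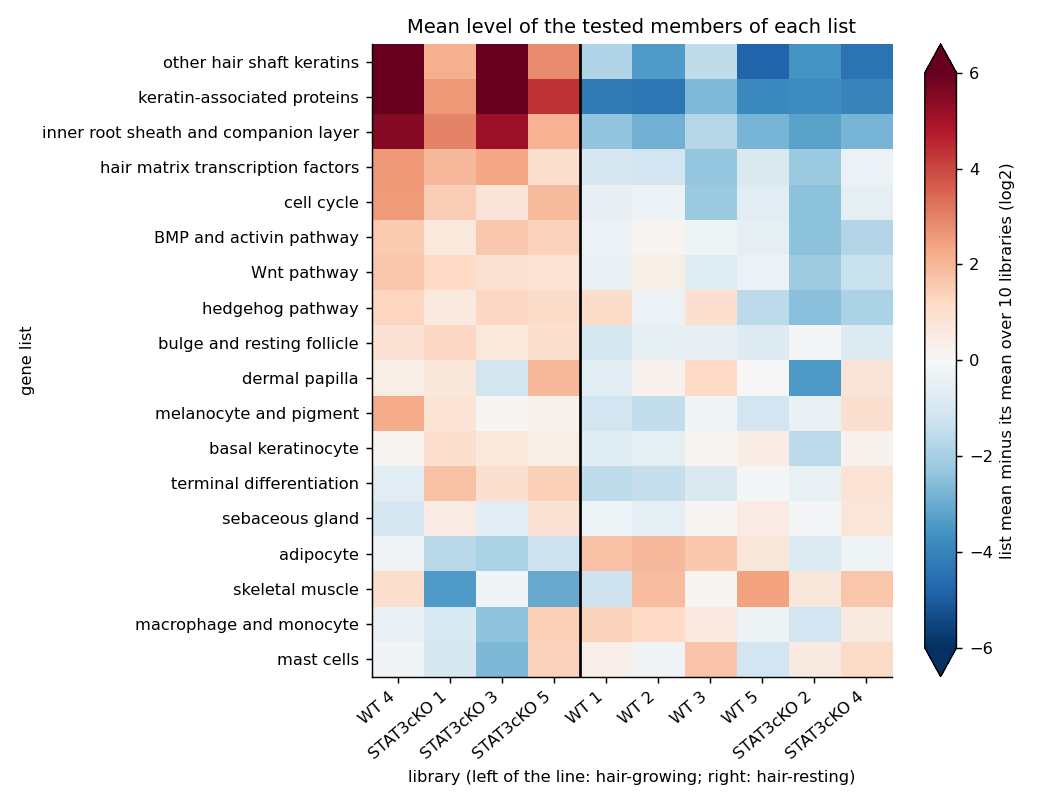
Mean deposited value of the tested members of each gene list (vertical axis) in each library (horizontal axis), as the difference from the list's own mean over the 10 libraries (colour, log2). The hair structure lists are above their mean in all 4 libraries left of the line and below it in all 6 to the right, while the muscle and immune lists vary within both sets.

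Transcription factors of the hair matrix had positive differences, few of which passed. Of 17 tested matrix transcription factors, 2 were called higher and 0 lower, the median difference was 3.17 and 16 were positive. Dlx3, which acts in shaft and sheath differentiation, had 9.17 to 12.76 in hair-growing and 7.47 to 9.34 in hair-resting libraries, and STAT3cKO 5 (9.17) lay below WT 5 (9.34). The set difference of Dlx3 was 3.17 ± 0.68 (SE), and it passed in 3 of the 10 fits that left out a library. Cux1, a homeodomain factor whose loss alters the inner root sheath, had values of 9.83 to 11.10 against 7.90 to 9.33, with a difference of 2.12 ± 0.46. Hoxc13, a regulator of hair keratin genes, was 10.08, 8.66, 9.89 and 7.85 in WT 4, STAT3cKO 1, 3 and 5 and 0.06 to 6.23 in the resting libraries. Its sets did not overlap, yet its difference of 6.79 ± 1.81 did not pass. Lef1, the nuclear partner of β-catenin, was 6.56 to 9.01 in the hair-growing set, but WT 5 had 6.93, within that range, and the difference of 6.16 ± 1.89 did not pass. Msx2, which no test covered, had values of 10.24, 4.75, 8.87 and 7.45 in the hair-growing libraries and 0.08 or less in each of the others. Satb1 was the list's only negative member (-1.42 ± 0.47), and Foxe1 was at 0 throughout.

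A further list held other genes linked to hair growth or hair structure. Of 15 tested, 3 were called higher, 0 lower, and the median was 3.58. S100a3, a calcium-binding protein of the hair cuticle, had 10.20 to 14.34 against 0.06 to 5.51. Lrrc15 had 10.29 to 13.04 against 0.00 to 8.35. Prr9, a proline-rich gene of the epidermal differentiation complex, had values of 16.33 in WT 4, 11.30 in STAT3cKO 1, 14.48 in STAT3cKO 3 and 11.23 in STAT3cKO 5. Among hair-resting libraries Prr9 had 8.72, 7.66, 7.27 and 9.86 in the WT and 1.29 and 0.00 in STAT3cKO 2 and 4. Within either genotype the hair-growing values were higher, and in either set STAT3cKO values were lower than WT values. The set difference of Prr9 was 10.20 ± 0.92.

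Signals of the hair cycle showed few calls. In the Wnt list, 1 of 19 tested genes was called higher (Wif1), 0 were lower, and the median was 1.25. Of the 10 fits that left out a library, Wif1 passed in 1, that without WT 2. Wif1, a secreted Wnt inhibitor, had values of 9.01, 9.07, 8.80 and 7.52 in WT 4, STAT3cKO 1, 3 and 5, against 4.95 in WT 2 and at most 0.08 in the other hair-resting libraries. Wif1 thus met the filter through the hair-growing set alone, and its call is a description. It is also listed here with genes of the bulge and resting follicle, of which 2 of 21 were called, both higher. Sox9, a factor of bulge stem cells and of the outer root sheath, was the other, with 10.68 to 11.23 against 7.67 to 9.51 and a difference of 2.17 ± 0.44. Sfrp1, another Wnt inhibitor, differed by 3.21 ± 0.78 and did not pass. Cd34, a bulge marker that vessels also express, had a difference of -1.03 ± 0.43. Shh, the ligand of the hedgehog pathway, was above 5 in only WT 4 (7.30) and STAT3cKO 3 (7.02), the libraries with the most hair keratin. Of the hedgehog list 0 of 7 tested genes passed, with a median of 2.66, or 1.38 without WT 3 and STAT3cKO 2 and 1.10 without STAT3cKO 2 alone. The receptor antagonist Hhip (5.33 ± 1.93) and the effector Gli3 (3.94 ± 1.98) had the lowest unadjusted p in it. In the BMP and activin list 0 of 11 passed, and Bambi, a pseudoreceptor that blunts BMP signalling, came nearest with 7.34 ± 1.83. Its values were 5.68 to 10.22 against 0.00 to 5.61. Of the BMP receptor Bmpr1a, the difference was 1.65 ± 0.47. The FGF, IGF and Notch list (0 of 14) and the dermal papilla list (0 of 9) had medians of 0.71, or 0.37 without WT 4, and 0.78. Wnt5a had 8.17 to 8.85 against 0.06 to 7.61, and Fgf7 differed by 3.28 ± 2.08. The dermal papilla median was -0.01 without WT 3 and STAT3cKO 2.

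Proliferation genes shared the direction but rarely passed. Each of the 24 tested cell cycle genes was higher on average in the hair-growing set, 1 was called, and the median difference was 3.28. Without WT 3 and STAT3cKO 2, the 2 libraries with many genes at 0, the median was 2.17, and without WT 4 it was 2.11. Top2a, a topoisomerase of dividing cells, had 11.12 in WT 4, 10.74 in STAT3cKO 1, 9.93 in STAT3cKO 3 and 10.84 in STAT3cKO 5. Its hair-resting values ran from 7.63 to 8.89, below each of these, and the difference was 2.55 ± 0.44, a 5.87-fold change. Rrm2, a subunit of ribonucleotide reductase, had 6.99 to 8.78 in hair-growing libraries and at most 2.83 in the others (7.52 ± 1.77, not called). Rrm2 met the filter through the hair-growing set alone, so its part in the count of 24 is a description. For Cdk1, the mitotic kinase, STAT3cKO 2 with 9.86 lay within the hair-growing range of 9.69 to 10.74. The cell cycle mean was lowest in STAT3cKO 2 (3.60) and WT 3 (3.83), beside their counts of genes without a read, whose part in the result was not tested.

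Pigment genes differed among themselves. Dct, dopachrome tautomerase of the melanin pathway, was 12.93 in WT 4 and 10.43, 10.77 and 10.50 in STAT3cKO 1, 3 and 5, and 6.84 to 8.38 in hair-resting libraries. The sets were more than 2 log2 units apart at their nearest libraries, and the difference was 3.78 ± 0.56. Tyrp1, the next enzyme, had 6.48 to 10.13 in the hair-growing set, but 7.75 in WT 5 and 6.73 in STAT3cKO 4 (6.09 ± 2.18, not called). Pmel, which builds the melanosome fibrils, was 10.36 to 11.30 and 9.65 to 11.54, with a difference of 0.14 ± 0.38. Tyr was above 5 in WT 4 alone. Among 8 tested pigment genes, Dct was the only call and the median was 0.42. That median was -0.39 without WT 4, where the set difference is estimated from STAT3cKO libraries alone, and it also changed sign under quantile normalization.

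Other called genes outside the hair lists include genes of keratinocytes. Sprr1a, a precursor of the cornified envelope, had values of 14.42 in WT 4, 13.90 in STAT3cKO 1, 15.04 in STAT3cKO 3 and 13.74 in STAT3cKO 5. In the hair-resting set Sprr1a lay between 10.36 and 11.54, so the nearest libraries of the sets were more than 2 apart. The difference was 2.99 ± 0.33 and was nearly the same without WT 4, at 2.79. Krt17, a keratin of hair follicle and injured epidermis, had 13.91 to 14.48 against 11.15 to 12.45 (2.21 ± 0.30). Among 14 tested stress keratins and alarmins Krt17 was the only call. Gja1, the gap junction protein connexin 43, had 10.73 to 13.21 against 8.71 to 9.42 (3.03 ± 0.45). Mt4, a metallothionein of stratified epithelia, had 11.45 to 13.87 against 8.44 to 10.05 (3.69 ± 0.54). Cxcl14, a chemokine of keratinocytes, had 11.42 to 12.15 against 9.57 to 10.99 (1.72 ± 0.33). Crym, Psors1c2 and Tchhl1, a relative of trichohyalin, differed by 8.11 ± 1.48, 7.23 ± 1.26 and 7.72 ± 1.28. Some hair-resting libraries had nearly no reads of them, with Crym and Psors1c2 at 0.06 in STAT3cKO 2 and Tchhl1 at 0.00 in STAT3cKO 4. Lce1m, a late cornified envelope gene, was called in the other direction, with 11.27 to 13.21 in hair-growing and 12.42 to 14.32 in hair-resting libraries (-1.57 ± 0.35). In the interfollicular lists 0 of 24 terminal differentiation genes and 0 of 14 basal keratinocyte genes were called. Their medians were 0.19, which changed sign without STAT3cKO 2, and 0.57, which was 0.19 without WT 3 and STAT3cKO 2. Krt5 and Krt14, the basal keratins, which the outer root sheath also makes, differed by 1.17 ± 0.30 and 1.23 ± 0.36. Cnfn, of the cornified envelope, differed by 1.36 ± 0.34.

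**Figure D4:**
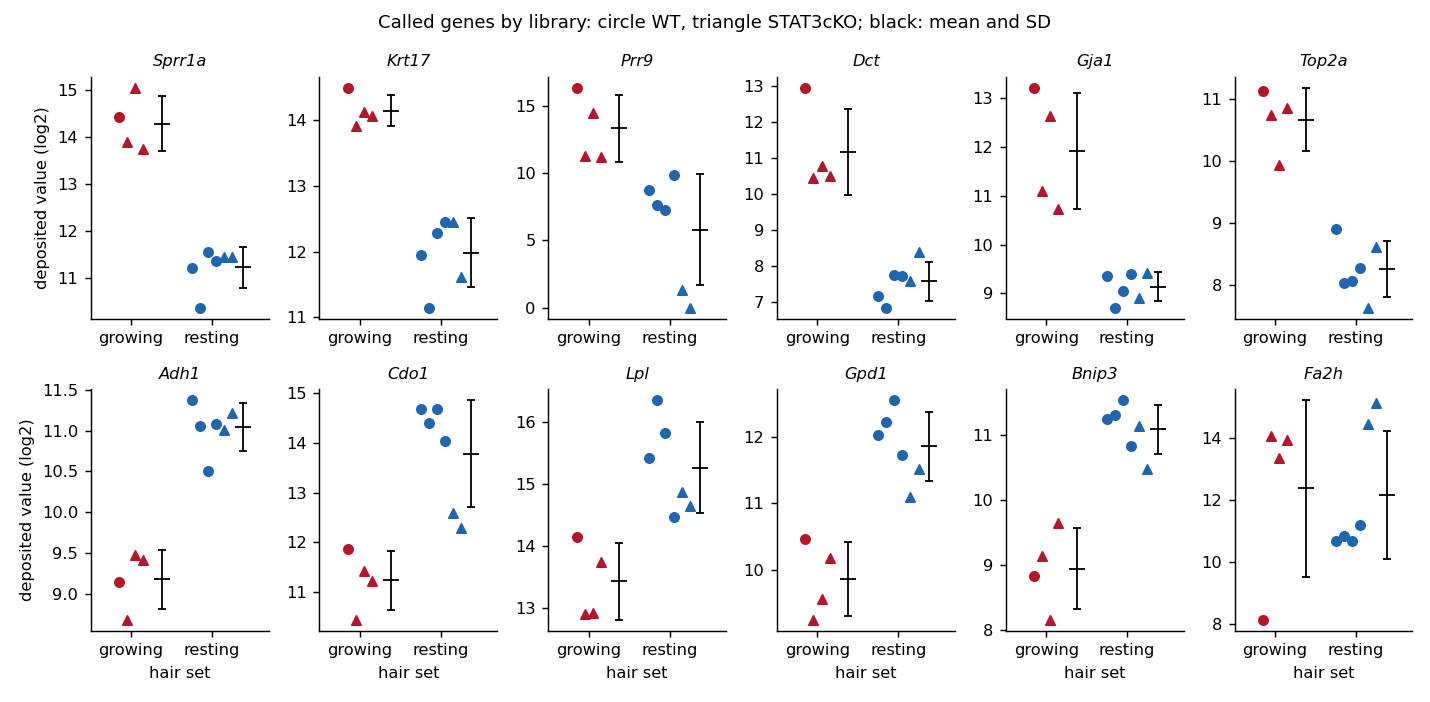
Deposited values (vertical axes, log2, each on its own range) of 12 called genes in hair-growing and hair-resting libraries (horizontal axes), with circles for WT, triangles for STAT3cKO and the mean and SD in black. The sets do not overlap except in Fa2h, where genotype separates the libraries.

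Genes called lower in hair-growing skin were abundant and their differences were smaller. Bnip3, a mitochondrial protein induced by low oxygen, had values of 8.83 in WT 4, 9.13 in STAT3cKO 1, 8.15 in STAT3cKO 3 and 9.64 in STAT3cKO 5, and of 10.48 to 11.53 in the hair-resting set. The sets did not overlap, and the difference was -2.06 ± 0.38. Gsn, gelsolin, differed by -1.21 ± 0.24. Lpl, lipoprotein lipase, had 12.90 to 14.15 against 14.46 to 16.34 (-1.48 ± 0.33). Gpd1, which makes glycerol phosphate for triglyceride, had 9.24 to 10.46 against 11.10 to 12.56 (-1.66 ± 0.31). Slc2a4, the insulin-regulated glucose transporter GLUT4, had 8.37 to 9.64 against 10.16 to 11.60 (-1.91 ± 0.37). Rbp4, the retinol carrier, differed by -1.60 ± 0.31. Adh1 and Aldh1a1, which oxidise retinol and retinal, differed by -1.90 ± 0.34 and -1.77 ± 0.39, and neither overlapped between sets. Trf, transferrin, differed by -1.96 ± 0.41 and Cd163, a scavenger receptor of macrophages, by -1.65 ± 0.35. Sod1, which removes superoxide, differed by -1.34 ± 0.29.

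Fat cell genes shared that direction. Of 20 tested adipocyte genes 1 was called lower (Lpl), 0 were higher, 18 were negative and the median was -1.35, which was also the value without WT 3 and STAT3cKO 2. Lpl passed in 3 of the 10 fits that left out a library. Adipoq, adiponectin, had values of 12.84 in WT 4 against 15.30, 15.77, 15.36 and 14.01 in WT 1, 2, 3 and 5. In STAT3cKO libraries Adipoq had 11.02, 10.55 and 11.51 in the hair-growing 1, 3 and 5, against 13.45 and 11.55 in the hair-resting 2 and 4. Hair-growing values were thus lower within each genotype, by little for STAT3cKO 4, and within each hair set WT lay above STAT3cKO. Its set difference of -1.79 ± 0.45 did not pass. Retn, resistin, differed by -2.31 ± 0.50 and Cidec, a lipid droplet protein, by -1.29 ± 0.31, and neither passed. Pparg, the adipocyte master regulator, and Adrb3 had positive differences of 2.13 ± 1.49 and 0.27 ± 1.44, with Pparg at 0.06 in STAT3cKO 2.

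Skeletal muscle genes had negative differences as well. All 20 tested muscle genes were negative and none was called, with a median of -1.91. The muscle list mean was 7.94 in STAT3cKO 1 and 8.34 in STAT3cKO 5 but 12.38 in WT 4, within the hair-resting range of 10.12 to 13.78. Without WT 4 the median was -3.33. Muscle genes held 0.121% of unlogged values in STAT3cKO 1 and 5.68% in WT 5. The share of muscle in each piece of skin thus varied within both sets, and its part in the differences of Slc2a4 and other genes that muscle also expresses was not tested. Ttn and Mb, of the sarcomere and of oxygen storage, differed by -2.26 ± 0.85 and -1.83 ± 0.72.

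The remaining cell types gave few calls. Of 16 tested macrophage and monocyte genes, Cd163 was called lower and the median was -0.88. Of 16 tested sebaceous gland genes Fa2h was called lower and the median was -0.61, or -0.18 without WT 4. Fa2h, fatty acid 2-hydroxylase, had 8.15 in WT 4 against 10.68 to 11.20 in the other WT libraries, and 13.34 to 14.06 in hair-growing STAT3cKO against 14.42 and 15.11 in STAT3cKO 2 and 4. It was lower in hair-growing libraries within each genotype (-1.68 ± 0.34), but the sets overlap because its genotype difference was larger, and without genotype in the fit its set difference was 0.21. Mast cell genes (0 of 7 called) had a median of -1.17, with Mcpt4 at -1.71 ± 0.47. The clock list had 0 of 15 calls and a median of -0.09, with Tef at -1.28 ± 0.32. Fibroblast and matrix genes had 0 of 20 and a median of 0.13, which changed sign without STAT3cKO 2. Immediate early, antigen presentation, T and NK cell, neutrophil, endothelial, smooth muscle, Schwann cell, erythrocyte, ribosomal and major urinary protein genes had 0 calls, with medians from -1.14 (major urinary proteins) to 0.96 (smooth muscle and pericyte). The smooth muscle median changed sign under quantile normalization. In the epidermal lipid barrier list Fa2h was again the only call among 20, with a median of -0.04.

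Since 3 of the 4 hair-growing libraries are STAT3cKO, the genotype comparison was repeated with the hair set as a covariate. Genotype comes from the labels and was not used to form the sets. With the set term, 102 of 12312 genes (0.828%) were called between STAT3cKO and WT, 63 higher and 39 lower in STAT3cKO. With genotype alone, 111 were called, of which 78 were shared, 76.5% of the first list and 70.3% of the second. None of the 78 changed direction, 24 were called with the set term only and 33 without it only. In the 6 hair-resting libraries alone 65 genes were called, 42 of them among the 102. Calls higher in STAT3cKO made up 61.8%.

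**Figure D5:**
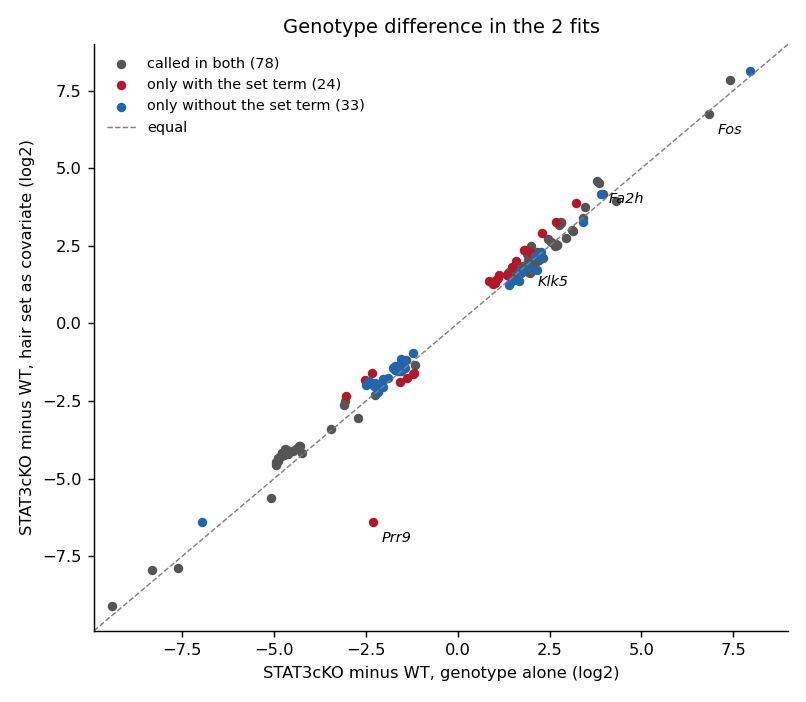
STAT3cKO minus WT difference with genotype alone (horizontal axis, log2) against that with the hair set as covariate (vertical axis, log2) for genes called in either fit. The genes, 78 called in both fits, 24 with the set term only and 33 without it only, mostly lie near the dashed line of equal values, and Prr9 lies far below it.

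Among genes called for genotype, Prr9 moved most between the fits. It differed by -6.39 ± 0.90 (SE) between STAT3cKO and WT with the set term (limma adjusted p = 0.00293) and by -2.31 without it (adjusted p = 0.831). Prr9, Fa2h, Cdo1 and Pla2g16 were the 4 genes called for both set and genotype. Fa2h was higher in STAT3cKO, by 4.52 ± 0.33 with the set term and 3.85 without. Cdo1, cysteine dioxygenase, had 14.04 to 14.69 in hair-resting WT, 12.29 to 12.59 in hair-resting STAT3cKO, 11.86 in WT 4 and 10.44 to 11.42 in hair-growing STAT3cKO, 4 ranges that did not overlap. Medians of the hair lists also depended on the term. For KAPs the genotype median was 2.75 with genotype alone and -1.45 with the set term, and for the inner root sheath it was 2.53 and -1.28, with 0 genes called in either list with the set term.

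For other genes the fits differed by varying amounts. Fos, an immediate early gene, differed by 6.75 ± 1.07 with the set term and 6.83 without. Hrnr, hornerin of the cornified layer, differed by 3.40 ± 0.40 and 3.40. Cyp1a1, an enzyme induced through the aryl hydrocarbon receptor, was higher by 4.58 ± 0.76 with the term and 3.79 without. Of 17 tested major urinary protein genes, which are near-identical copies, 14 were called lower, with medians of -4.18 and -4.73. For the genes of the study's title, Stat3 differed by 0.34 ± 0.40, with values of 9.08 to 10.29 in WT and 9.49 to 10.81 in STAT3cKO. The 3′ reads of whole skin do not show whether the deleted part of Stat3 was transcribed in keratinocytes. Spink5, an inhibitor of skin proteases, differed by 0.53 ± 0.30 and did not pass. Klk5, the protease it inhibits, had values of 7.97 to 9.56 in WT and 10.41 to 11.84 in STAT3cKO, without overlap. It was higher by 1.83 ± 0.43 with the set term (limma adjusted p = 0.0553) and by 1.92 with genotype alone (adjusted p = 0.0211). The difference moved little, and the adjusted p crossed the threshold. The hair sets overlapped for both genes, where Klk5 differed by 0.22 ± 0.44 and Spink5 by -0.27 ± 0.30.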

How the data were processed

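Whole skin RNA, in 5 STAT3cKO and 5 WT libraries, was sequenced from transcript 3′ ends with a QuantSeq kit, per the labels' protocols. The submitters' processing notes name Bowtie2, bedtools and the build mm10. For versions, annotation, strand use and scaling the sources used here give nothing. The authors deposited 1 table of 23282 entries per library, whose values behave as log2 of scaled reads plus a pseudocount of 1, as read from the values. Depth was estimated from the worth of 1 read among low values, and covers counting error only.

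Genes entered the tests with a value of 5 or more in 4 or more of the libraries. A linear model with hair set and genotype as terms was fitted with limma 3.58.1 in R 4.3.3 (empirical Bayes with mean trend and robust estimation, Benjamini-Hochberg over all genes, threshold 0.05). The steps were run on simulated data with normally spread values, the same spread in both sets and no genotype difference. That run does not cover genes without a read in the hair-resting set. Differences are on the deposited log2 scale, which understates those of genes with few reads, while a library without a read can enlarge them. Intervals after ± are SE. A gene without a read in the hair-resting set was bounded at a floor of 3 reads per library.

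The members of the sets and the 37 gene lists were chosen with earlier results of these data known. Named genes are the 8 markers, Stat3, Spink5 and Klk5, genes from the 12 largest called non-overlapping differences in each direction with a mean of at least 6, up to 4 called members per list (2 with the lowest p where none was called), and genes from the 10 largest genotype calls in each direction. Called and uncalled genes named beyond that, such as Sprr1a, Gja1, Hoxc13, Lef1, Msx2, Shh, Rrm2, Cdk1, Tyrp1, Pmel, Adipoq, Sfrp1, Satb1 and Krtap3-2, were chosen after their values were seen. Positions come from GENCODE mouse release M21 and promoters from RefSeq (GRCm38.p6). Not every called gene is reported. Alternatives changed the filter, pseudocount, scaling, weights, terms and libraries.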

Additional observations from a re-analysis of the deposited data

Results flagged for a closer look

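In 36 gene lists, 72 sets of library means were checked for a library far from its set, which chance gives in about 1 of 20. There were 2 such cases, no more than that rate gives, both in the hair-resting set. The mean of the tested keratin-associated protein genes was 2.03 in WT 3, with the next library at 0.90. The mean of the fibroblast and matrix genes was 9.60 in STAT3cKO 2, with the next library at 10.92. WT 3 and STAT3cKO 2 are also the libraries with the most tested genes without a read.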

How the results depend on the processing

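Counts of called genes moved with the processing, and the cause was not tested. For genes higher in hair-growing skin (77), the count was 31 with a value of at least 5 in at least 5 libraries, 25 with a mean value of at least 5, 189 with array weights and 12 in STAT3cKO libraries alone. Leaving out 1 library gave 3 to 97. Without WT 4 no WT library is hair-growing, so the set difference comes from STAT3cKO libraries alone. That fit and the one in STAT3cKO libraries alone share their estimates and differ in the spread used. For genes lower in hair-growing skin (21), the count was 36 with a pseudocount of 16, 11 with a mean of at least 5, 33 with quantile normalization, 145 with array weights, 1 without trend and robust estimation, 42 without the genotype term and 4 in STAT3cKO libraries alone. Leaving out 1 library gave 1 to 41. For genotype with the hair set as covariate, the count of genes higher in STAT3cKO (63) was 36 with no filter beyond a value above 0, 170 with array weights, 4 without trend and robust estimation and 20 in the hair-resting libraries alone. Leaving out 1 library gave 29 to 72. The count of genes lower in STAT3cKO (39) was 63 with a pseudocount of 16, 78 with array weights and 16 without trend and robust estimation. Leaving out 1 library gave 30 to 45. The interaction had 0 calls, and 0 to 567 when 1 library was left out, with 1 without STAT3cKO 2 and 567 without STAT3cKO 4. It could not be fitted without WT 4.

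Replicate numbers are shared between the genotypes in the titles, but same-numbered libraries did not deviate together (correlations of deviations of 0.073, -0.176, 0.102, -0.006 and -0.054). With the replicate number as a block, 12 genes were higher and 1 was lower in hair-growing skin, and 42 were higher and 31 lower in STAT3cKO.

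Of 79 genes given for the set difference, 3 changed direction under some alternative. Fa2h had 0.21 without the genotype term. Pmel had -0.16 with array weights, -0.31 to 0.60 when 1 library was left out (below 0 without STAT3cKO 2, -0.31, or 5, -0.03), -0.37 without both WT 3 and STAT3cKO 2 and -0.10 with the replicate block. Pparg had -0.05 with array weights, -0.45 (without STAT3cKO 2) to 3.86 when 1 library was left out and -0.65 without both. Of 19 genes given for genotype, Stat3 had -0.10 (without WT 4) to 0.62 when 1 library was left out and -0.10 in the hair-resting libraries alone. Calls higher made up 78.6% of the set calls, 70.8% after quantile normalization and 81.0% after median centring, and 61.8%, 62.1% and 53.2% of the genotype calls. The set calls include genes that met the filter through the hair-growing libraries alone. Depth limits genes below a value of about 5, where a library without a read weighs most.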
